A study of Homo sapiens with 4 samples.

Results

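The E2F and DP transcription factors were examined in RNA-seq data from cells labelled NB4, with or without GNE-987. The genes were taken by name: E2F1 to E2F8 and the DP genes TFDP1 and TFDP2 were looked up in GENCODE release 44, which gave 10 genes among the 58735 listed in the deposited table. There were 2 libraries from cells labelled as the GNE987 control (control) and 2 from cells treated with GNE-987 at 25 nM for 1 day. The dose and time are those of the study's figure legend and the treatment is that of the sample labels. The labels do not say whether the control cells received a vehicle. NB4 is the name of a human line established from acute promyelocytic leukemia, and GNE-987 is a bifunctional molecule that joins a ligand of the BET bromodomain proteins to a ligand of the VHL ubiquitin ligase. The comparison asks which genes change in expression after the treatment. All libraries were of the same line, no genetic change was listed for any of them, and nothing in the labels says whether the replicates were separate cultures, so that P values measure the spread between these libraries, which may be technical.

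E2F proteins bind the promoters of genes needed for DNA replication and cell division. E2F1, E2F2 and E2F3 are known as activators, while E2F4, E2F5 and E2F6 act mainly as repressors, and these 6 bind DNA together with a DP partner. E2F7 and E2F8 are atypical members that repress without DP. The pocket proteins RB1, RBL1 and RBL2 hold E2F in check until cyclin-dependent kinases phosphorylate them, and E2F4 with RBL1 or RBL2, DP and the MuvB core forms the DREAM complex of resting cells.

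Expression was deposited as FPKM, that is fragments scaled to gene length and to sequencing depth. The libraries rested on 12435287 to 19496828 reads on genes, as recovered from the steps between the deposited values, and those of the GNE-987 group were the shallower. The values of the GNE-987 libraries had been scaled to 0.672 and 0.682 times their reads on genes and those of the control libraries to 1.18 and 1.15 times, so the direction of small differences depends on the scaling. Of the deposited values, log2(FPKM + 0.1) was tested with limma, and a gene was called higher or lower where P was under 0.05 before adjustment and the groups differed by more than 2-fold. The marker genes went against the label. Of 10 promyelocyte markers, 7 had a control mean under 1 FPKM, with MPO at 0.0246 and 0 FPKM in the control libraries, ELANE at 0 in both and CTSG at 0 in all 4, and the list summed to 12.9 and 11.2 FPKM in control and to 39.0 and 37.3 with GNE-987. All 10 erythroid markers had control means of 5 FPKM or more, with sums of 399 and 385 FPKM in control and 299 and 259 with GNE-987. The sums of both lists hide opposite moves. Of 7 promyelocyte markers tested, 4 were called higher and 1, CD33, lower. MPO rose to 11.8 and 11.3 FPKM with GNE-987, while SPI1 went from 7.52 and 5.68 FPKM to 4.80 and 3.23 FPKM without a call. Of the 10 erythroid markers, 6 were called lower and 3 higher. GATA1 went from 124 and 122 FPKM to 15.1 and 12.5 FPKM, and HBG1 from 42.3 and 44.8 FPKM to 154 and 123 FPKM. Among protein-coding genes tested, 31.7% were called lower and 24.0% higher. The part of these markers in the results on E2F genes was not tested. In such bulk RNA, fewer cells of a type and less RNA per cell cannot be told apart.

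The promoters of the E2F genes are shown first, since several of the genes are known to be under E2F control themselves. RefSeq windows from 250 bases before to 50 bases after an annotated start, on GRCh38.p14, were held for 8 of the 10 genes. E2F5 and E2F8 were not among them. Each was searched on both strands for 4 forms of the E2F motif, TTTGGCGC, TTTCGCGC, TTTCCCGC and TTTGGCGG. No window below held more than 1 match to these forms, so that none overlapped another. Other forms, such as TTTCGCGG, were not searched, so further sites may stand in the lower-case letters. The windows are given 5′ to 3′ in the direction of the gene, with the matched bases in capitals, for the 3 activators and for the 2 repressors called lower.
E2F1 (chr20:33686336-33686635, minus strand): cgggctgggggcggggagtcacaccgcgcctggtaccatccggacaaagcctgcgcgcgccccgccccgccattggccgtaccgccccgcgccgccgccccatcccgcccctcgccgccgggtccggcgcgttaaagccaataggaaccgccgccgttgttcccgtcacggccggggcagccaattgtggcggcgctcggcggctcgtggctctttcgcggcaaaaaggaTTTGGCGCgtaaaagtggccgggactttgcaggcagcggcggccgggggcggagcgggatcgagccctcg
E2F2 (chr1:23531184-23531483, minus strand): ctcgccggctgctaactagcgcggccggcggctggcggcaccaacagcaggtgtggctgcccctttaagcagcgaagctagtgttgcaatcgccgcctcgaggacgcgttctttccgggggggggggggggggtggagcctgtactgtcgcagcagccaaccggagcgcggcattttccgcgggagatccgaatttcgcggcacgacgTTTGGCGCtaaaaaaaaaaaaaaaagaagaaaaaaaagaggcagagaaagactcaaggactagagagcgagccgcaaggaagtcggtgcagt
E2F3 (chr6:20401629-20401928, plus strand): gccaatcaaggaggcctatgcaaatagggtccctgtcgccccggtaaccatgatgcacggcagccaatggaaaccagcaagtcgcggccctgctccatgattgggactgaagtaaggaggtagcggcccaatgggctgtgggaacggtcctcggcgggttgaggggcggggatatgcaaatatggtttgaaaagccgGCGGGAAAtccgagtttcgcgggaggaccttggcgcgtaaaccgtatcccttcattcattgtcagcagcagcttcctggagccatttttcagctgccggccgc
E2F4 (chr16:67191905-67192204, plus strand): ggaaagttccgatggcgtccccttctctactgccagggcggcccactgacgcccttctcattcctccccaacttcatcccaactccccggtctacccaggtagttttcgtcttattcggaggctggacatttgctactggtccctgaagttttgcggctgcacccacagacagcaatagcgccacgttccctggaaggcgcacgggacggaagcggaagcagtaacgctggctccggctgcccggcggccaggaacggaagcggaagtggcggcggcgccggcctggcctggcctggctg
E2F6 (chr2:11466112-11466411, minus strand): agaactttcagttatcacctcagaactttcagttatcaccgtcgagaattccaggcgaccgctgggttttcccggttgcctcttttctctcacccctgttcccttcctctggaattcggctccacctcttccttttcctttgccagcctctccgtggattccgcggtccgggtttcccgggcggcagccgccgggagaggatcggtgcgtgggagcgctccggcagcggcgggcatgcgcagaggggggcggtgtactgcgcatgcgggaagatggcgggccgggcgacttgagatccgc
All 3 activators had 1 match. It began 20 bases before the start in E2F1 and 42 bases before it in E2F2, both with TTTGGCGC on the gene's strand, and 53 bases before it in the first of 2 windows of E2F3, with TTTCCCGC on the opposite strand. TFDP1 had TTTCGCGC 120 bases before its start, on the opposite strand, and the first of 3 windows of TFDP2 had TTTGGCGG from base 19 after the start, also on the opposite strand. The windows of E2F4, E2F6 and E2F7 held none of these letters. Over all promoters, 3.35% of 35116 windows held at least 1 of the 4 motifs. Counted by gene, with a match in any window of the gene, the share was 4.05% of 27305 genes.

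Among the 10 genes, E2F4, E2F6, TFDP2 and E2F2 fell after GNE-987 treatment, while E2F1 and E2F3 had higher values that stayed under the 2-fold threshold. All 10 genes had a mean of at least 0.5 FPKM and were tested. The thresholds called 4 of them lower and 0 higher, with the same counts for an adjusted P value in place of the unadjusted one. Among 10996 protein-coding genes tested, 31.7% were lower and 24.0% higher, and among all 16668 genes tested 24.9% were lower and 33.6% higher. With 10 genes, 4 lower calls lie near that background. The control and GNE-987 libraries did not overlap for any of the 10, but this also held for 93.3% of protein-coding genes. An adjusted P value under 0.05 at any fold change was found for 9 of the 10 genes and for 83.1% of protein-coding genes. The 10 genes had a median log2 fold change of -0.74, against -0.29 for protein-coding genes.

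**Figure D1:**
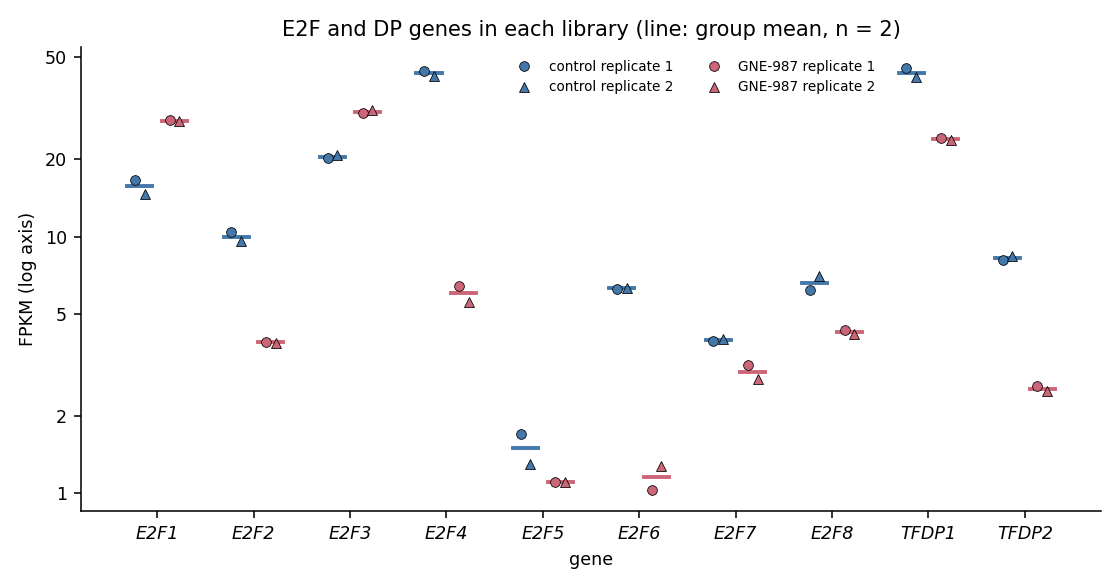
FPKM of each E2F and DP gene (log axis) in the 2 control libraries (blue) and the 2 GNE-987 libraries (red), with circles for replicate 1, triangles for replicate 2 and a line at each group mean. E2F4 fell from 44.3 and 42.1 FPKM to 6.44 and 5.57, while E2F1 stood at 16.7 and 14.7 FPKM in control and at 28.4 and 28.1 with GNE-987.

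Positions are those of whole genes in GENCODE release 44 on GRCh38. E2F1 (ENSG00000101412, chr20:33675477-33686385, minus strand), the founding activator, which can also drive apoptosis genes, was at 16.7 and 14.7 FPKM in control and at 28.4 and 28.1 FPKM with GNE-987. Both GNE-987 libraries were above both control libraries. The means were 15.7 ± 1.40 and 28.3 ± 0.228 FPKM (SD, n = 2), a ratio of 1.80. On the log2 scale this was 0.85 ± 0.0788 (SE, 95% confidence interval 0.63 to 1.07, adjusted P = 0.00142), so the gene did not pass the 2-fold threshold. The values rested on 960 and 813 reads in control and 595 and 621 with GNE-987. Scaled to the total of reads on genes in each library, this was 49.2 and 42.1 CPM against 47.8 and 48.0 CPM, so that on that scale the GNE-987 libraries lay between the control libraries.
E2F3 (ENSG00000112242, chr6:20401879-20493714, plus strand), an activator that can also repress through an isoform, was at 20.2 and 20.8 FPKM in control and at 30.2 and 31.1 FPKM with GNE-987. Its log2 fold change was 0.58 ± 0.0467 (SE, adjusted P = 0.00102), again with no overlap and under the 2-fold threshold. E2F3-IT1, a noncoding gene inside E2F3 on the same strand, was at 0.434 and 0.791 FPKM in control and at 0 in both GNE-987 libraries, on 4 and 7 reads.
E2F2 (ENSG00000007968, chr1:23506438-23531233, minus strand), the third activator, went the other way. It fell from 10.4 and 9.62 FPKM to 3.90 and 3.86 FPKM, which is 1305 and 1161 reads against 178 and 186. The log2 fold change was -1.34 ± 0.0748 (SE, adjusted P = 0.000445), and both GNE-987 libraries were well under both control libraries.

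The repressor E2F4 (ENSG00000205250, chr16:67192155-67198918, plus strand), the main E2F of resting cells, had the largest change of the 10 genes. It fell from 44.3 and 42.1 FPKM in control to 6.44 and 5.57 FPKM with GNE-987, on 3656 and 3336 reads against 193 and 176. The means were 43.2 ± 1.58 and 6.01 ± 0.621 FPKM (SD, n = 2), a 7.20-fold decrease. On the log2 scale this was -2.83 ± 0.0923 (SE, 95% confidence interval -3.09 to -2.57, adjusted P = 0.000191). No annotated gene overlaps it, and ELMO3, which begins 192 bases past its 3′ end on the same strand, was also lower, at 4.89 and 3.28 FPKM in control and 1.95 and 0.968 FPKM with GNE-987.
E2F6 (ENSG00000169016, chr2:11444375-11466177, minus strand), a repressor that works with Polycomb proteins and without pocket proteins, fell from 6.27 and 6.29 FPKM to 1.03 and 1.28 FPKM, with all GNE-987 values far under the control values. Its log2 fold change was -2.35 ± 0.139 (SE, adjusted P = 0.000501), a 5.44-fold decrease of the mean. The GNE-987 values rest on 35 and 46 reads, the fewest of the 10 genes. Its processed pseudogene E2F6P4, with which reads can be shared, was at 3.21 and 3.87 FPKM in control and 1.16 and 1.102 FPKM with GNE-987, on 38, 44, 5 and 5 reads.
E2F5, the other pocket-protein-bound repressor, was the lowest of the family in control, at 1.71 and 1.30 FPKM against 1.11 and 1.11 FPKM with GNE-987. The log2 fold change of -0.39 (95% confidence interval -0.93 to 0.15, adjusted P = 0.132) did not differ from 0 beyond the spread between replicates. RBIS overlaps E2F5 on the opposite strand, and as the counting is not stated to use strand, reads in the shared stretch could belong to either.
The atypical repressors were both somewhat lower with GNE-987. E2F7 (ENSG00000165891, chr12:77021248-77065569, minus strand) was at 3.92 and 4.01 FPKM in control and 3.15 and 2.79 FPKM with GNE-987, a log2 fold change of -0.41 ± 0.103 (SE, adjusted P = 0.0252). E2F8 (ENSG00000129173, chr11:19224063-19241620, minus strand) was at 6.18 and 7.04 FPKM in control and 4.33 and 4.19 FPKM with GNE-987, a log2 fold change of -0.62 ± 0.0968 (SE, adjusted P = 0.00616). Neither reached a 2-fold change.

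Both DP genes were lower in the GNE-987 libraries, and TFDP2 passed the thresholds. TFDP1 (ENSG00000198176, chr13:113584721-113641473, plus strand), the main dimerization partner of the E2F proteins, was at 45.2 and 41.8 FPKM in control and 24.3 and 23.7 FPKM with GNE-987. Its log2 fold change of -0.85 (95% confidence interval -1.02 to -0.69, adjusted P = 0.000666) did not reach 2-fold. TFDP2 (ENSG00000114126, chr3:141944428-142149544, minus strand), the second partner, fell from 8.11 and 8.42 FPKM to 2.61 and 2.50 FPKM, a log2 fold change of -1.65 ± 0.0770 (SE, adjusted P = 0.000318). The reads of TFDP2 were 2222 and 2216 in control and 260 and 263 with GNE-987. TFDP3, a related gene outside the 10, was at 0 in all 4 libraries.

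For 4 genes the lower call was kept under each scaling tried. E2F2, E2F4, E2F6 and TFDP2 were called lower under all 6 scalings compared, which were the deposited one, median ratios, quantile normalization, the total of recovered reads, the sum of FPKM and GAPDH. The median of all tested genes moved by 0.11, -0.42, -0.74, -1.40 and -1.77 (log2) under the 5 alternatives, in that order. Only median ratios moved that median up, so the other alternatives, which moved it down, could hardly have removed a lower call. The log2 fold change of E2F4 ran from -4.66 with scaling to GAPDH to -2.71 with median ratios, and that of TFDP2 from -3.45 to -1.54. E2F1 and E2F3 were above 0 in the deposited values, with median ratios and with quantile normalization. E2F1 was at 0.07 with the total of recovered reads, at -0.62 with the sum of FPKM and at -0.996 with GAPDH, and E2F3 was at -0.20, -0.89 and -1.27 under the same 3 scalings. Scaling to the total of recovered reads also called TFDP1, E2F8, E2F7 and E2F5 lower, with log2 fold changes of -1.63, -1.38, -1.17 and -1.12. Under that scaling, 5597 of 10996 protein-coding genes were called lower and 1728 higher. Relative to the median of protein-coding genes, the deposited log2 fold changes were 1.14 for E2F1, 0.87 for E2F3, -1.05 for E2F2, -1.36 for TFDP2, -2.06 for E2F6 and -2.54 for E2F4. The remaining members lay closer to that median, at -0.10 for E2F5, -0.12 for E2F7, -0.33 for E2F8 and -0.56 for TFDP1.

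**Figure D2:**
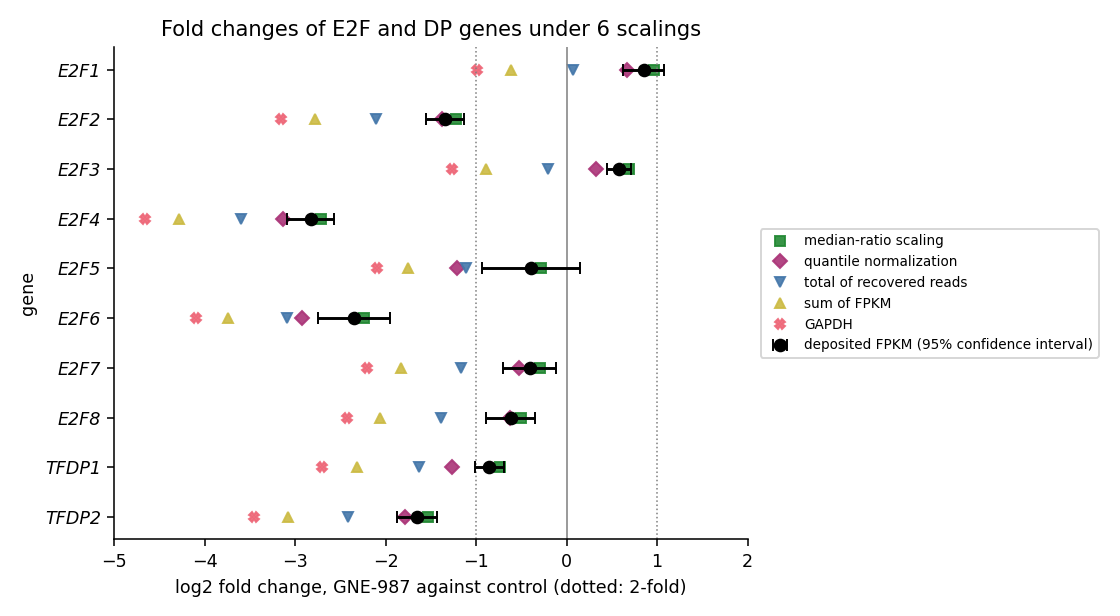
GNE-987 against control as log2 fold change for each E2F and DP gene, with black points and 95% confidence intervals for the deposited FPKM and coloured marks for the 5 other scalings. E2F2, E2F4, E2F6 and TFDP2 lie under the dotted 2-fold line at the left under every scaling, while E2F1 runs from -0.996 to 0.97 and E2F3 from -1.27 to 0.69.

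Shares and ranks within a library do not depend on a scaling that applies 1 factor to the whole library, which quantile normalization does not. The activators E2F1, E2F2 and E2F3 made up 43.1% and 42.6% of the summed FPKM of E2F1 to E2F8 in control and 79.5% and 80.9% with GNE-987. The difference of 37.4 percentage points was far over the spread of the replicates (SD 0.356 and 0.922 points, n = 2). The exact permutation test over libraries, two-sided, gave P = 0.333, which is the smallest value that 2 against 2 libraries allow, so no such test can pass in this design. Shares of recovered reads gave a difference of 33.1 points. E2F4 was the most abundant E2F in control, with 40.4% and 39.8% of the sum, and held 8.20% and 7.14% with GNE-987. E2F3 went from 18.4% and 19.6% to 38.4% and 39.8%, and E2F1 from 15.2% and 13.9% to 36.2% and 36.1%. For every FPKM of E2F4 there were 0.376 and 0.349 FPKM of E2F1 in control and 4.41 and 5.05 FPKM with GNE-987, a difference of 3.70 on the log2 scale. E2F6 went from 5.72% and 5.95% to 1.31% and 1.64% of the sum. The shares of E2F5 and E2F7 overlapped between the groups, at 1.23 to 1.56% and 3.57 to 4.01% over the 4 libraries.

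**Figure D3:**
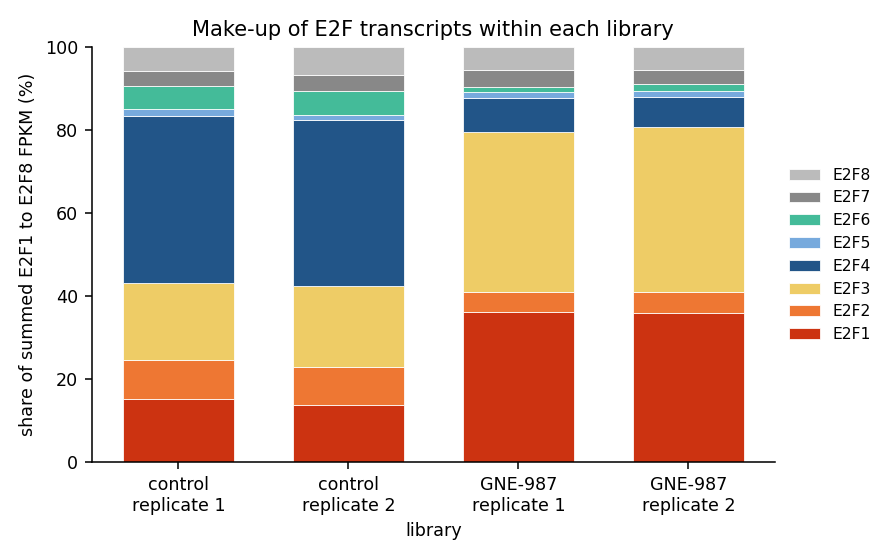
Share of each gene in the summed FPKM of E2F1 to E2F8 (%), stacked for each of the 4 libraries. The activators E2F1 to E2F3 take 43.1% and 42.6% in control and 79.5% and 80.9% with GNE-987, and E2F4 (dark blue) shrinks from 40.4% and 39.8% to 8.20% and 7.14%.

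The sum over E2F1 to E2F8 was 110 and 106 FPKM in control and 78.6 and 78.0 FPKM with GNE-987. TFDP1 and TFDP2 together were at 53.3 and 50.2 FPKM in control and at 26.9 and 26.2 FPKM with GNE-987. TFDP1 made up 84.8% and 83.2% of that sum in control and 90.3% and 90.4% with GNE-987, a difference of 6.36 percentage points (exact permutation P = 0.333, two-sided). Of the recovered reads, which are not divided by gene length, TFDP1 held 63.6% and 61.0% in control and 74.5% and 74.9% with GNE-987, a difference of 12.4 points.
By rank among the 10996 tested protein-coding genes of its own library, E2F4 stood at the 93.8th and 93.3rd percentile in control and at the 62.2nd and 58.7th with GNE-987. E2F6 went from the 55.4th and 55.1st to the 15.6th and 20.4th percentile. E2F1 stood at the 79.8th and 77.2nd percentile in control and at the 87.6th and 87.5th with GNE-987, and E2F3 at the 83.3rd and 83.8th and then at the 88.2nd and 88.3rd. TFDP1, although lower in FPKM, kept a high rank, with the 93.9th and 93.2nd percentile in control and the 85.7th and 85.6th with GNE-987. In the order of control means, TFDP1 (43.5 FPKM) and E2F4 (43.2 FPKM) came first and did not differ beyond their spread, followed by E2F3, E2F1, E2F2, TFDP2, E2F8, E2F6, E2F7 and E2F5, with E2F8 and E2F6 also within their spread. With GNE-987 the order was E2F3, E2F1, TFDP1, E2F4, E2F8, E2F2, E2F7, TFDP2, E2F6 and E2F5, the last 2 of which overlapped.

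Genes that act with or upstream of E2F were described as 4 lists, 39 genes in all, of which 36 were tested. At the thresholds 17 were lower (47.2%) and 4 higher (11.1%) in the deposited values, against 31.7% and 24.0% of protein-coding genes.
Of the pocket proteins and the MuvB core with its partners MYBL2 and FOXM1, 9 of 10 genes were tested, 5 of which were lower and 0 higher, with a median log2 fold change of -1.24. RBL2, the pocket protein p130 that pairs with E2F4, fell from 6.03 and 6.08 FPKM to 0.997 and 1.13 FPKM, a log2 fold change of -2.41 ± 0.111 (SE). RBL1, which is p107, fell by 1.34 on the log2 scale, and was not called when control replicate 2 was left out (unadjusted P = 0.0534), with a pseudocount of 1 (-0.93) or when tested against a 2-fold change (unadjusted P = 0.111). RB1 itself was at 6.26 and 6.21 FPKM in control and 5.26 and 4.99 FPKM with GNE-987, under the 2-fold threshold. FOXM1, a factor of mitotic genes, fell from 13.8 and 12.6 FPKM to 2.20 and 2.31 FPKM. MYBL2, itself an E2F target, was at 86.3 and 78.1 FPKM in control and at 92.9 and 91.2 FPKM with GNE-987, a log2 fold change of 0.16 that was not significant (adjusted P = 0.0790) and that turned negative under 4 of the other scalings. LIN9 and RBBP4 of the MuvB core fell by 1.24 and 1.28.
Of 12 partners of E2F6 in its Polycomb complex, 5 were lower and 1 higher. RNF2 and RING1, the ubiquitin ligase subunits, had log2 fold changes of -1.76 and -1.54, MGA, the large DNA-binding scaffold, -1.64, WDR5 -1.38 and the deacetylase HDAC2 -1.23. RYBP, a cofactor of RNF2, rose from 5.36 and 5.08 FPKM to 41.7 and 40.0 FPKM, a log2 fold change of 2.94 ± 0.0595 (SE), the reverse of those 5.
Of 13 D-type cyclins, kinases and kinase inhibitors, 11 were tested, of which 5 were lower and 3 higher. The kinases that act on pocket proteins fell together, CDK6 by 2.42, CDK2 by 1.45 and CDK4 by 1.42 on the log2 scale, and the cyclins CCND1 and CCND3 fell by 1.66 and 1.13. The cyclin CCND2 and the inhibitors CDKN1C and CDKN2C were not called, with log2 fold changes of 0.20, 0.69 and -0.15. The inhibitor CDKN1A, which is p21, rose from 0.812 and 0.548 FPKM to 70.0 and 71.9 FPKM, on 57 and 37 reads against 1785 and 1935. CDKN1B, which is p27, went from 10.5 and 11.8 FPKM to 55.0 and 50.1 FPKM, and CDKN2D from 6.39 and 5.50 FPKM to 19.7 and 18.9 FPKM. Of these 3, CDKN1A was called higher under all 6 scalings, while CDKN1B was not with GAPDH or the sum of FPKM, and CDKN2D turned to -0.15 with GAPDH and was not called with the sum of FPKM (0.22) or the total of recovered reads (0.91). CDKN2A and CDKN2B were at 0 in all 4 libraries.
Of 4 genes that direct the breakdown of E2F proteins, SKP2 and the APC/C activator FZR1 fell, with log2 fold changes of -1.39 and -1.47, and CCNF and CDC20 did not pass.

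The known E2F targets of G1 and S phase, 40 genes of replication and nucleotide supply, included genes called in both directions. Of 39 tested, 12 were lower (30.8%) and 6 higher (15.4%), against 31.7% and 24.0% of protein-coding genes, so the share of lower calls was at the background. The median log2 fold change was -0.48, or -0.19 relative to the median of protein-coding genes. Of the 34 with a RefSeq window, 23 (67.6%) held at least 1 of the 4 forms of the motif, against 4.05% of all 27305 genes with windows. The list holds genes already known as E2F targets, so a high share was likely from the outset and says nothing of the treatment.
The largest decreases were those of RFC4, a subunit of the clamp loader, from 33.6 and 33.5 FPKM to 8.82 and 6.58 FPKM, of the repair gene BRCA1, of GINS1 and GINS2 of the replicative helicase, and of MCM3 and MCM10. Their log2 fold changes were -2.13, -1.79, -1.73, -1.40, -1.61 and -1.40, with adjusted P values of 0.00083 or less.
Among the 6 genes called higher were SLBP, which binds histone mRNA, the cyclin CCNE2, the Polycomb methyltransferase EZH2, the nucleotide enzyme TK1 and the mitotic kinase CDK1, with log2 fold changes of 1.74, 1.59, 1.32, 1.29 and 1.16 in the deposited values. SLBP went from 80.8 and 77.8 FPKM to 266 and 264 FPKM and TK1 from 88.8 and 86.0 FPKM to 211 and 217 FPKM. With scaling to GAPDH these 5 turned negative, and with the total of recovered reads none of the 5 was called. The 6 subunits of the MCM helicase had log2 fold changes of -0.60 for MCM2, -1.61 for MCM3, -0.06 for MCM4, -0.29 for MCM5, -1.27 for MCM6 and -0.21 for MCM7, of which MCM3 and MCM6 were called lower. The MCM subunits other than MCM3 were named after their values were seen.
RefSeq windows were held for 4 of the targets called higher, 11 of those called lower and 19 of the others, and 2, 6 and 15 of these held a motif.
Of 10 apoptosis genes known as E2F1 targets, 8 were tested, 3 of which were higher (37.5%) and 1 lower (12.5%). Among protein-coding genes 24.0% were higher and 31.7% lower, and with 8 genes these counts lie near that background. BCL2L11, which encodes BIM, went from 6.10 and 6.63 FPKM to 35.98 and 35.0 FPKM, a log2 fold change of 2.46 ± 0.0653 (SE). PMAIP1, which encodes NOXA, and APAF1, the apoptosome scaffold, had log2 fold changes of 1.80 and 1.36, and TP73, a p53 relative, fell by 1.34 but was not called with a pseudocount of 1 (-0.77). With scaling to GAPDH, PMAIP1 and APAF1 turned negative, and BCL2L11 stayed positive but was not called. With the sum of FPKM, PMAIP1 was not called and APAF1 was at -0.071, and APAF1 was also not called with the total of recovered reads.

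**Figure D4:**
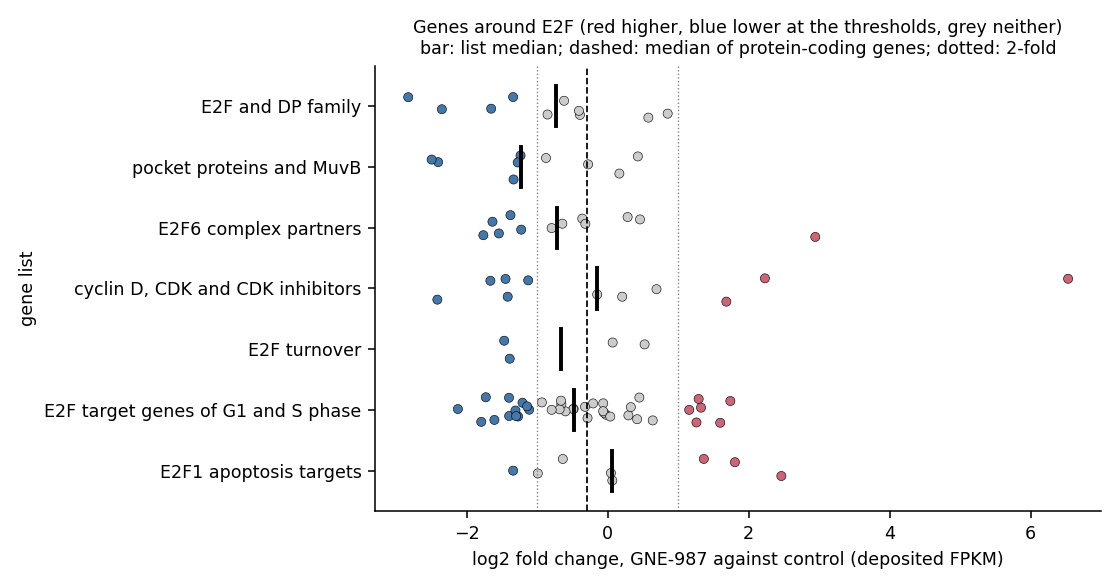
GNE-987 against control as log2 fold change in the deposited FPKM for the tested genes of the E2F and DP family and the 6 lists of regulators and targets, 1 point per gene, with red for genes called higher, blue for lower and grey for neither, a bar at each list's median and a dashed line at the median of protein-coding genes (-0.29). Of the 7 groups plotted, the pocket proteins and MuvB genes have the lowest median (-1.24), and CDKN1A is the plotted gene farthest to the right (6.53).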

How the data were processed

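RNA-seq was made from 2 control and 2 GNE-987-treated samples of cells labelled NB4. The authors mapped filtered reads with HISAT (HISAT2 2.0.5 on hg38 in the submitters' processing notes), tested genes with DESeq2 and deposited FPKM values for 58735 Ensembl identifiers, 58207 (99.1%) of which are in GENCODE release 44, used here for names and positions. The read counter and the annotation are not given in the sources used here. FPKM are not counts, so genes averaging 0.5 FPKM or more were tested on log2(FPKM + 0.1) with limma 3.58.1 in R 4.3.3 (empirical Bayes with trend, no replicate block, 2 against 2 libraries), with the study's thresholds in place of DESeq2, and P values were Benjamini-Hochberg adjusted over 16668 genes. Fold changes on this scale understate those of low genes. Depth: values are whole multiples of 1 read, and reads were recovered with a tolerance of 0.01 at the GENCODE exon length for 17431 of 32895 genes above 0 (53.0%), E2F6 and TFDP2 among the 10, and at another whole length for the rest, a weaker test. Reads cover counting error only.

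The 10 genes and all lists were chosen with earlier results of these data known, and the lists were written by hand. Named beside the 10 are the genes of the regulator and apoptosis lists, the 6 targets with the largest decrease and the 6 with the largest increase among those called with a mean of at least 1 FPKM, of which 1 is not reported here, and the 3 protein-coding genes nearest to E2F1, E2F4 and TFDP1 over the 4 libraries. Shares were compared with exact permutation tests (scipy 1.17.1). Alternatives were 5 scalings, other pseudocounts (1 and 0.01), a filter at 1 FPKM or none, calls on adjusted P values, limma's treat at 2-fold, the replicate number as a block, voom (limma) on recovered reads, and each library left out. The fit and the recovery of reads were tested on simulated data, in which few genes changed and each library was scaled to its own reads. The simulated data thus do not cover the unequal scaling of the deposited values. Promoter sequences are from RefSeq (GRCh38.p14).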

Additional observations from a re-analysis of the deposited data

How the results depend on the processing

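Scaling moved the results more than any other choice. The lower calls among the 10 E2F and DP genes were 4 in the deposited values, 9 with scaling to GAPDH 6 with quantile normalization, and 8 each with the sum of FPKM, the total of reads recovered, and voom. Higher calls among them were 0 under every alternative, and 4 lower calls were counted under median ratios, pseudocounts, filters, adjusted P values, the test against 2-fold and each left-out library. Under the settings GAPDH, sum of FPKM, total of reads and voom, the G1 and S phase targets had 33, 32, 22 and 22 lower calls and 0 higher calls each, and with quantile normalization 1 higher. The regulators had 32 and 30 lower calls and 2 and 2 higher calls with GAPDH and the sum of FPKM. Over all genes, 3031 were higher and 9738 lower with GAPDH, 3320 and 8751 with the sum of FPKM, 6655 lower with the total of reads and 6770 lower with voom. Among 10996 protein-coding genes, 8000 were lower and 1149 higher with GAPDH, and 7277 and 1294 with the sum of FPKM. The total of reads called 5597 lower and 1728 higher, voom 5663 and 1763, and quantile normalization 4387 and 1966. Much of the rise in lower calls was thus shared by protein-coding genes at large. The cause was not tested.

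Among the 10 genes, 6 fold changes turned sign over 17 alternatives for each gene. E2F1 turned to -0.996 with GAPDH and -0.62 with the sum of FPKM, and E2F3 to -1.27, -0.89, -0.20 and -0.20 with GAPDH, the sum of FPKM, the total of reads and voom. With GAPDH the log2 fold changes were -0.70 for CDK1, -0.56 for TK1, -0.53 for EZH2, -0.21 for CCNE2, -0.11 for SLBP, -0.15 for CDKN2D, -0.44 for APAF1, -0.039 for PMAIP1 and -1.69 for MYBL2. With the sum of FPKM they were -0.31 for CDK1, -0.18 for TK1, -0.15 for EZH2, -0.071 for APAF1 and -1.31 for MYBL2. MYBL2 was at -0.69 with quantile normalization, -0.62 with the total of reads and -0.62 with voom. With the replicate block the lower calls were 4 among the 10 genes, 12 among the targets and 17 among the regulators, and 5667 genes were higher and 4186 lower over the whole table, so the block ended no call among these groups in count. Libraries with the same number did not deviate together (correlation 0.00537 across genes), so the numbers were not taken as pairs. With each library left out, the activator share differed by 36.7 to 38.0 percentage points.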

Other observations

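The genes nearest in level to 3 of the factors over the 4 libraries, by distance in log2(FPKM + 0.1) among 10996 protein-coding genes, were TXNL4A, CCDC167 and NUBP2 for E2F1 (distances 0.0818, 0.146 and 0.209), PPIL1, SPN and HMGN4 for E2F4 (0.214, 0.276 and 0.346), and RHOT2, HES6 and EIF1AX for TFDP1 (0.0756, 0.102 and 0.120). PPIL1 was at 43.4 and 43.1 FPKM in control and 6.94 and 6.32 FPKM with GNE-987, and SPN, which encodes the leukocyte surface protein CD43, at 37.9 and 39.0 and then 6.09 and 5.92 FPKM. With 4 libraries in 2 groups, nearness says only that level and shift were alike.

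Among the 7 tested genes annotated next to E2F1, E2F4 and TFDP2 and not overlapping them, 3 were called higher and 4 lower with GNE-987, against 33.6% and 24.9% of all tested genes. Those called lower were NECAB3, 1013 bases past E2F1, ELMO3, 192 bases past E2F4, MATCAP1, 8114 bases before E2F4, and GK5, 7982 bases before TFDP2, with log2 fold changes of -1.48, -1.47, -1.40 and -1.54. Those called higher rested on few reads. Their control values were all under the minimum mean FPKM for testing, so only their GNE-987 values brought them into the test. A lower call was hardly open to them, so no conclusion is drawn from setting their count against the share of all tested genes. ENSG00000271803, a noncoding gene 96 bases past the 3′ end of E2F1 on the opposite strand, was at 0.296 and 0.308 FPKM in control and 1.36 and 2.58 FPKM with GNE-987, on 3, 3, 5 and 10 reads. ENSG00000279147, 5880 bases past the 3′ end of TFDP2 on the same strand, was at 0 and 0.123 FPKM in control and 1.36 and 0.615 FPKM with GNE-987, on 0, 5, 21 and 10 reads. EXOC3L1, 1969 bases before the 5′ end of E2F4 on the opposite strand, was at 0.0988 and 0.0588 FPKM in control. With GNE-987 it was at 1.36 and 0.994 FPKM, and the reads over the libraries were 7, 4, 35 and 27. Its control values lie under the 0.1 FPKM added before the log, so no fold change is given. These genes were named after their values were seen.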
